A study of Mus musculus with 40 samples.

Results

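The mitochondrial carriers of the Slc25 family were taken as all entries of the deposited expression table whose symbol starts with Slc25a, which gave 34 of its 11450 genes. All 34 passed the filter on low values, at least 1 RPKM (reads normalised to gene length and library size) in 4 or more libraries, as did 11390 genes in all. Another 14 of 48 family members looked up by symbol were not analysed here. RNA-seq was done on adult mice of the inbred C57BL/6 strain whose left coronary artery was permanently tied off, which kills the muscle it feeds and leaves a scar. From each heart the injured scar and a remote, uninjured piece were taken, in 4 mice per day on days 3, 7, 14, 21 and 42, giving 20 mice and 40 libraries. Every mouse carried the ligation, so remote muscle is the reference and no heart without an infarct enters the comparison. Mice of days 3 to 21 bear labels with A and those of day 42 labels with B. Xist, which marks female mice, was above 1 RPKM in both regions of 10 of the 20 mice. How these 10 were spread over the days is not given here.

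SLC25 carriers are small proteins, mostly of the inner mitochondrial membrane, that swap nucleotides, phosphate, carboxylates, amino acids and cofactors between cytosol and matrix. Heart muscle depends on them to export ATP, to bring in phosphate and acylcarnitines, and to pass reducing equivalents inward through the malate-aspartate shuttle. A few relatives sit in the outer membrane or in peroxisomes, and several lack an agreed substrate.

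Of the 34 carriers, 21 were lower in the scar than in remote muscle on all 5 days and 5 were higher on all 5 days (limma, adjusted p under 0.05 on each day). Among all genes tested, 28.8% were lower on all 5 days and 28.6% higher on all 5. The carriers lower throughout included the heart ADP/ATP exchanger Slc25a4, the phosphate carrier Slc25a3, the oxoglutarate/malate carrier Slc25a11 and the acylcarnitine carrier Slc25a20. The carriers higher throughout were Slc25a24, Slc25a1, Slc25a37, Slc25a45 and Slc25a30. Slc25a36 and Slc25a10 were called lower on one day and higher on another, as were 9.9% of all genes. Slc25a40 was called on no day, and the other 5 on 1 to 4 days in a single direction.

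**Figure D1:**
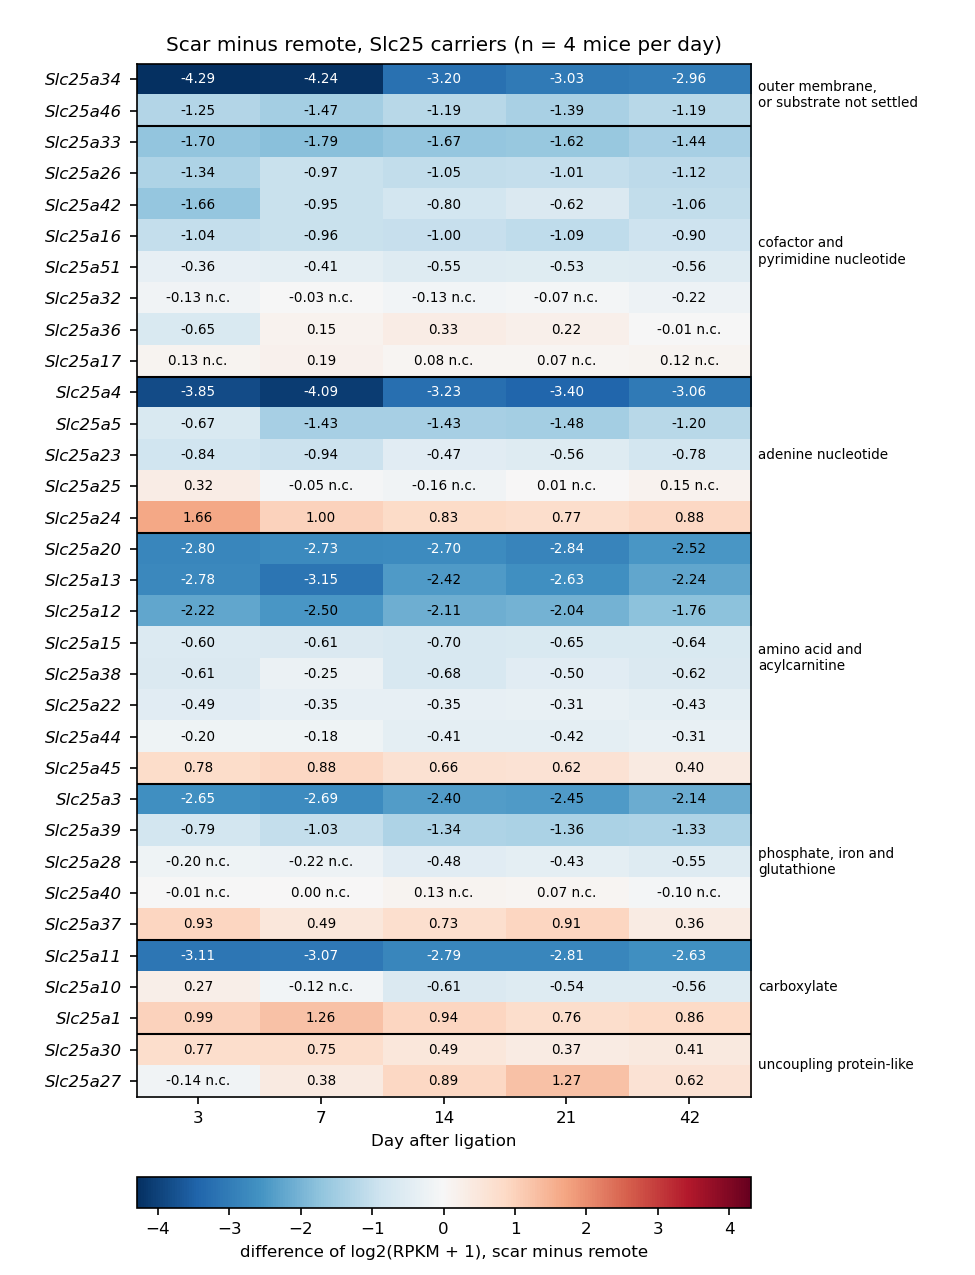
Difference of log2(RPKM + 1) between scar and remote region for 33 carriers, grouped by substrate, on each day after ligation, with n = 4 mice per day and n.c. for values not called at a limma adjusted p under 0.05. On the deposited scale blue cells are lower and red cells higher in the scar: Slc25a34 and Slc25a4 have the lowest values, down to -4.29, and Slc25a24 the highest, 1.66 at day 3.

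By day, 22 carriers were lower and 7 higher at day 3, against 39.6% and 44.1% of all genes tested. At day 7 they were 21 and 8 (38.7% and 43.6% of all genes), and at day 14 they were 23 and 7 (40.5% and 42.4%). At day 21 they were again 23 and 7 (41% and 43.1%), and at day 42 they were 24 and 6 (38.7% and 40.5%). The median difference over the carriers lay between -0.64 and -0.51 on the log2(RPKM + 1) scale, where low genes appear to change less than they do, and the median over all genes lay between 0.03 and 0.06. Differences of at least 1 on that scale were found downward for 11 to 13 carriers a day, when 13.2 to 16.5% of all genes were that much lower. Upward they were found for 1 carrier at most, when 10.3 to 15.4% of all genes were that much higher.

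The directions depend on how libraries are put on one scale. Whole reads could be recovered from the deposited values. Their totals were 74.2 to 81.2% of the library size behind the RPKM in the scar and 113 to 142% in remote muscle. In remote muscle the recovered reads exceed that library size, so it is not a plain total of reads. How it was set is not stated in the sources used here. Scaling to the totals of recovered reads moved the median difference of all genes to between 0.59 and 0.68. It moved the share of calls that were higher in the scar from between 51.1 and 53.0% to between 76.7 and 81.0%. Mitochondrially encoded genes made up 2.27 to 10.9% of the recovered reads in the scar and 14.9 to 28.6% in remote muscle. Under median-of-ratios scaling the median of all genes was 0.01 to 0.04 and no called carrier difference changed sign. Sign changes with a call in at least one fit numbered 40 when scaled to recovered reads. They numbered 18 with mitochondrially encoded genes left out of that total and 5 after quantile normalization. Of the 21 carriers lower throughout, 15 were below 0 on every day under all 5 scalings tried, and the 5 carriers higher throughout were above 0. Fewer were also called on every day under all 5 scalings, 11 of the 21 lower and 4 of the 5 higher. Of all genes, at most 16.7% can be lower and at most 39.1% higher in this way. Those are the smallest shares called on any day under any of the 5 scalings. The share of all genes that kept their sign throughout is not given here. The exceptions to the direction among the 21 were Slc25a5, Slc25a22, Slc25a23, Slc25a38, Slc25a44 and Slc25a51, each above 0 on at least 1 day under 1 or more scalings, so directions given for these 6 hold for the deposited scale.

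Markers of the tissues were read beside the carriers. All 12 cardiomyocyte markers were lower in the scar on every day, with a summed level of 1484 to 6730 RPKM in scar and 19396 to 29879 RPKM in remote libraries. The 8 fibroblast markers summed to 1576 to 5812 RPKM in scar against 490 to 967 RPKM in remote libraries. At day 3, 6 of these 8 were called higher and 1 lower, and from day 7 on all 8 were higher. The 8 macrophage markers summed to 400 to 1832 against 161 to 283 RPKM, with 7 called higher at day 7 and 8 on each other day. The 6 endothelial markers summed to 84.6 to 220 RPKM in scar and 161 to 221 RPKM in remote libraries. At day 3, 2 of these 6 were called lower and 2 higher, and from day 7 on all 6 were lower. Of all genes, 38.7 to 41% were lower and 40.5 to 44.1% higher on a day. Of the 6 adipocyte and 7 skeletal muscle markers only Fabp4 and Tnnt3 were in the table. Fabp4 was at 15.8 to 60.6 RPKM in scar against 104 to 177 RPKM in remote libraries. Tnnt3 was at 1.34 to 6.42 against 0.223 to 0.793 RPKM. With 1 gene each, neither list can speak for its cell type. In bulk tissue, fewer cells of a type and less RNA of a gene per cell cannot be told apart, and the part of these cell types in the carrier differences was not tested.

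Promoters of a few carriers are printed to set sequence beside direction. RefSeq promoters (GRCm38.p6, 250 bases before to 50 bases after a start) were found for 26 of the 34 carriers. A search on both strands for an oestrogen-related receptor half-site, TNAAGGTCA, and for a nuclear respiratory factor 1 core, GCGCATGCG, found neither in the 26, against 1.43% and 1.95% of 27025 genes. The E-box CACGTG was found in 5 of the 26 (19.2%), against 8.09% of all genes. That motif itself holds a CG pair, and these shares were not matched for base composition. Carrier promoters had medians of 60.7% G and C and 17.5 CG pairs, against 52.7% and 7 over all promoters. Those 5 were Slc25a13, Slc25a15 and Slc25a33, lower throughout, Slc25a1, higher throughout, and Slc25a36, which changed direction. No match says only that these letters are not in this window. The first lines show promoters with the E-box in capitals, one for each of these courses, and the last lines those of carriers with extreme differences, where no motif was matched.
Slc25a13 (chr6:6217124-6217423, minus strand): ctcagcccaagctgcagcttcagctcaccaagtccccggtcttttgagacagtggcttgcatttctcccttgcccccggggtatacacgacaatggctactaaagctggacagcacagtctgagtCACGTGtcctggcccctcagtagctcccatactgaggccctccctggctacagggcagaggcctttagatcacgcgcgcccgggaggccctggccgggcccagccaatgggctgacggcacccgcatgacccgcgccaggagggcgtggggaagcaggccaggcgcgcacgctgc
Slc25a1 (chr16:17928170-17928469, minus strand): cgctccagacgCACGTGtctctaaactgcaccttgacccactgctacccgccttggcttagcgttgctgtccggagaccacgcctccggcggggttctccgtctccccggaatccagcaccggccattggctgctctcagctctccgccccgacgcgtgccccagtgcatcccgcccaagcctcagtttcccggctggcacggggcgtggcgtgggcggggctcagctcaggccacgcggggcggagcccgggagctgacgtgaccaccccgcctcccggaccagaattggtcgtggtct
Slc25a36 (chr9:97110992-97111291, minus strand): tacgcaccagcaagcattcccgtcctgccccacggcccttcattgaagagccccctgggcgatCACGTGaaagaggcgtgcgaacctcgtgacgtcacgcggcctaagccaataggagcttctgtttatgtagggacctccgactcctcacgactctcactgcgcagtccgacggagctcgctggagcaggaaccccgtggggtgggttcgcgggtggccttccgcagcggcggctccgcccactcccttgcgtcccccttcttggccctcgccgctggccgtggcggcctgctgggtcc
Slc25a4 (chr8:46211013-46211312, minus strand): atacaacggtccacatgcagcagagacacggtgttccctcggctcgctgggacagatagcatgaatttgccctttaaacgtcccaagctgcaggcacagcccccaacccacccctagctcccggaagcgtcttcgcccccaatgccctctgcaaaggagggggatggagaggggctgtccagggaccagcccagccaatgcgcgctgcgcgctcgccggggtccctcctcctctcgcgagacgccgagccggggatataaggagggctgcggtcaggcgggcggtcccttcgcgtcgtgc
Slc25a34 (chr4:141623785-141624084, minus strand): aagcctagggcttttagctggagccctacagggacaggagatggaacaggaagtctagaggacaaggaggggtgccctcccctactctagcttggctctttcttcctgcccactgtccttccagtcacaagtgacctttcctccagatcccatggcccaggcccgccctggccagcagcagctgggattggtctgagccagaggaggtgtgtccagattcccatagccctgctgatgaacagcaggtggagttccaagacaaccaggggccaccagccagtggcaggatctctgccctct
Slc25a24 (chr3:109122899-109123198, plus strand): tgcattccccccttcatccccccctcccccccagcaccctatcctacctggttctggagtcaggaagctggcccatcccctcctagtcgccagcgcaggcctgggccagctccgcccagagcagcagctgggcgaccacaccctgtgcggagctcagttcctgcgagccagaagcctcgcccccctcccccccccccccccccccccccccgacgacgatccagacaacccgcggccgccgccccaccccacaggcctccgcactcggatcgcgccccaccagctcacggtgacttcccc

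Base composition set the Slc25a34 promoter apart from the others printed. It held 59% G and C but only 1 CG pair, where Slc25a4 held 65.7% with 25 pairs and Slc25a24 72.3% with 19 pairs. The median over the 32 promoters of carriers was 17.5 CG pairs, and over all 32851 promoters it was 7.

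Among carriers of adenine nucleotides, 3 of 5 were lower and 1, Slc25a24, was higher in the scar on all 5 days. Slc25a4 (chromosome 8, 46206797 to 46211284, minus strand, mm10 as annotated in GENCODE M21, which holds for the positions below), the ADP/ATP exchanger of heart and skeletal muscle, had the highest mean level of the 34 in both regions. At day 3 its 4 scar libraries stood at 115, 124, 162 and 193 RPKM and its 4 remote libraries at 1917, 2094, 2166 and 2249 RPKM. At day 7 the scar libraries were at 94.2, 96.3, 102 and 104 RPKM and the remote ones at 1490, 1564, 1897 and 1909 RPKM. Over all days the highest scar library was at 317 RPKM and the lowest remote one at 1490 RPKM, so the regions did not overlap. The difference was -3.85 ± 0.15 (SE), -4.09 ± 0.15 and -3.06 ± 0.15 on the log2 scale on days 3, 7 and 42 (limma adjusted p = 2.16e-15, 1.11e-15 and 1.87e-13). The remote mean was 14.2, 17.3 and 8.19 times the scar mean on those days.

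Slc25a4 alone made up 65.3 to 71.6% of the summed RPKM of the 34 carriers in remote muscle. In the scar its share was 26.3 to 51.4%, with a mean of 28.5% ± 1.70 (SD, n = 4) at day 7 and 47.4% ± 3.69 at day 42. The sum itself was 335 to 639 RPKM in the 20 scar libraries and 2282 to 3733 RPKM in the 20 remote libraries, without overlap.

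Slc25a5 (chromosome X, 36795651 to 36798807, plus strand), the ADP/ATP exchanger of growing and most non-muscle cells, was less reduced. Its scar libraries stood at 57.5, 58.2, 61.6 and 67.0 RPKM at day 3, against 91.5, 92.1, 101 and 107 RPKM in remote muscle. At day 7 the scar values were 28.0, 33.6, 34.2 and 41.6 RPKM and the remote ones 87.4, 92.4, 94.8 and 98.8 RPKM. The groups did not overlap on any day, and the difference was -0.67 ± 0.10 at day 3 and -1.43 ± 0.10 at day 7 (limma adjusted p = 2.92e-06 and 2.32e-11). At day 3 it was 0.11 on the scale of recovered reads and 0.07 after quantile normalization, so the direction at that day rests on the scaling. Proliferation markers were higher in the scar at day 3, 8 of 8 with a median difference of 1.78, beside 44.1% of all genes. At day 7, 0 of 8 were called higher and 2 lower, beside 43.6% and 38.7% of all genes. The part of these markers in the Slc25a5 level was not tested. A processed copy, Slc25a5-ps, is annotated, and how reads shared with it were counted is not given in the sources used here.

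The calcium-regulated ATP-Mg/phosphate carriers split. Slc25a24 (chromosome 3, 109123149 to 109168457, plus strand) was at 15.6, 15.8, 16.2 and 17.8 RPKM in scar and at 3.56, 4.49, 4.82 and 5.23 RPKM in remote libraries of day 3. At day 42 the scar held 8.43, 9.51, 9.60 and 10.9 RPKM and remote muscle 4.50, 4.52, 4.62 and 5.33 RPKM. Every scar library was above every remote library of its day. The difference was 1.66 ± 0.08 at day 3, a 3.61-fold ratio of means, and 1.0 ± 0.08 and 0.88 ± 0.08 on days 7 and 42 (limma adjusted p = 7.84e-14, 3.65e-10 and 3.53e-09). It had one of the 4 smallest p for a change of the difference over the days (limma F test, adjusted p = 7.09e-06), and the smallest of the 34 for a change of the scar level (adjusted p = 1.59e-08).

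Slc25a23, its relative, went the other way and was low in both regions. It was at 1.36, 1.93, 2.18 and 2.41 RPKM in the scar and 4.03, 4.18, 4.34 and 4.62 RPKM in remote muscle at day 3, a difference of -0.84 ± 0.11 (limma adjusted p = 2.82e-07). On days 14 and 21 its differences of -0.47 ± 0.11 and -0.56 ± 0.11 became 0.10 and 0.04 when scaled to recovered reads. Slc25a25, a further relative, was called at day 3 alone, with a difference of 0.32 ± 0.10 (limma adjusted p = 0.00591), and without mouse A7 of that day the adjusted p was 0.105.

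**Figure D2:**
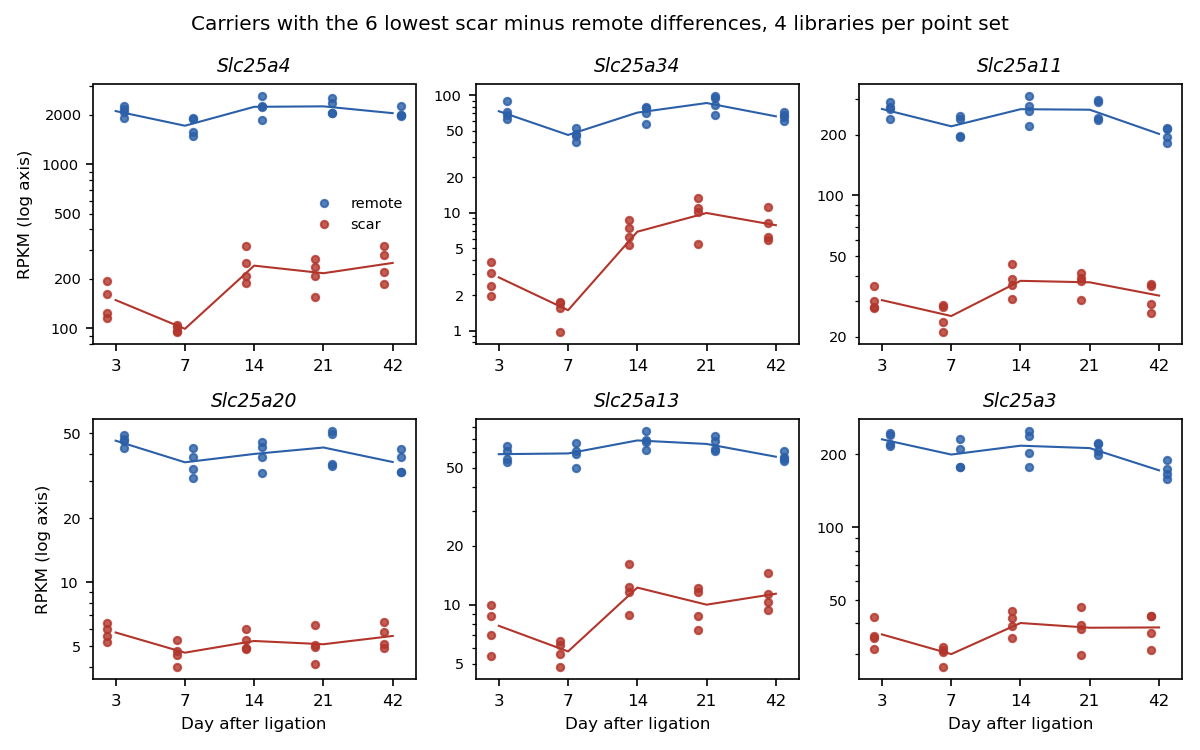
RPKM of each library on a log axis against day after ligation, for the 6 carriers with the lowest mean difference, with red points for scar, blue points for remote libraries and lines through the means of 4. In all 6 panels the scar points of a day lie below its remote points, and the scar mean is lowest at day 7.

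Among carriers of phosphate, iron and glutathione, 2 of 5 were lower and 1 was higher throughout. Slc25a3 (chromosome 10, 91116574 to 91124059, minus strand), which brings in phosphate for ATP synthesis and also carries copper, was among the 3 carriers with the highest mean level in each region. It stood at 26.4, 30.4, 30.9 and 31.8 RPKM in scar and 177, 178, 211 and 232 RPKM in remote libraries of day 7. The groups were apart on every day, with differences of -2.69 ± 0.11 at day 7 and -2.14 ± 0.11 at day 42 (limma adjusted p = 3.88e-15 and 3.08e-13).

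The mitoferrins, which import iron for haem and iron-sulphur clusters, differed in direction. Slc25a37 (mitoferrin 1, chromosome 14, 69241848 to 69285112, minus strand) was at 5.16, 5.19, 5.72 and 5.91 RPKM in scar and 1.96, 2.23, 2.63 and 2.90 RPKM in remote libraries of day 3, without overlap. Its difference of 0.93 ± 0.10 at day 3 was 0.49 ± 0.10, 0.91 ± 0.10 and 0.36 ± 0.10 on days 7, 21 and 42 (limma adjusted p = 1.48e-08, 0.000106, 1.95e-08 and 0.00236). Mitoferrin 1 is best known from red cell precursors. Of 7 red blood cell markers 5 were in the table, and 0 of them were called higher on any day. At day 3, 3 were lower, beside 39.6% of all genes. From day 7 on all 5 were lower, beside 38.7 to 41% of all genes. These markers summed to 13.3 to 135 RPKM in scar and 102 to 366 RPKM in remote libraries. The part of red cells in the Slc25a37 level was not tested. Slc25a28 (mitoferrin 2, of most other cells) was at 5.92, 7.19, 7.28 and 9.26 RPKM in scar and 8.38, 8.76, 8.85 and 8.86 RPKM in remote libraries of day 7, with overlap and no call. It was lower on days 14, 21 and 42, with differences of -0.48 ± 0.11, -0.43 ± 0.11 and -0.55 ± 0.11 (limma adjusted p = 0.000367, 0.000995 and 9.55e-05), but above 0 on all 5 days when scaled to recovered reads.

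Slc25a39 imports glutathione, the main thiol buffer of mitochondria. It was at 18.9, 20.1, 20.1 and 21.5 RPKM in scar and 31.3, 33.7, 38.3 and 39.2 RPKM in remote libraries of day 3. By day 42 the scar held 10.6, 11.1, 12.2 and 12.6 RPKM and remote muscle 26.2, 30.3, 32.8 and 33.8 RPKM, and the groups did not overlap on any day. The difference went from -0.79 ± 0.09 at day 3 to -1.33 ± 0.09 at day 42 (limma adjusted p = 7.77e-08 and 2.79e-11). Scaled to recovered reads, the day 3 value was -0.03 and no longer called. Its relative Slc25a40 stood at 1.45, 1.60, 1.65 and 1.70 RPKM in scar and 1.58, 1.61, 1.62 and 1.65 RPKM in remote libraries of day 3. No day was called for it, with differences from -0.10 ± 0.07 to 0.13 ± 0.07, although it was called higher on all 5 days on the scale of recovered reads and lower on all 5 after quantile normalization.

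Carriers of the malate-aspartate shuttle were far lower in the scar. Slc25a11 (chromosome 11, 70644196 to 70647479, minus strand), the oxoglutarate/malate exchanger, was at 27.8, 28.0, 29.9 and 35.5 RPKM in scar and 240, 268, 273 and 291 RPKM in remote libraries of day 3. Its difference was -3.11 ± 0.11 at day 3 and -2.63 ± 0.11 at day 42 (limma adjusted p = 4.1e-16 and 1.35e-14). It shares 189 exonic bases with Rnf167 on the opposite strand, 8.92% of its exons, and whether counting used strand is not given in the sources used here. Slc25a12 (aralar), an aspartate/glutamate exchanger, was at 4.53, 4.63, 4.65 and 4.88 RPKM in scar and 28.4, 29.8, 31.7 and 34.8 RPKM in remote libraries of day 7, a difference of -2.50 ± 0.08 (limma adjusted p = 3.91e-16). Slc25a13 (citrin, chromosome 6, 6041218 to 6217173, minus strand) does the same exchange and was at 4.79, 5.57, 6.19 and 6.54 RPKM against 49.8, 58.8, 61.0 and 66.4 RPKM on that day, a difference of -3.15 ± 0.13 (limma adjusted p = 3.86e-15). All 3 genes were lower in the scar in 4 of 4 mice on each day.

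The other carboxylate carriers did not follow Slc25a11. Slc25a1 (chromosome 16, 17925223 to 17928219, minus strand), which exports citrate to the cytosol where it feeds fatty acid synthesis, was at 7.11, 7.52, 7.66 and 9.59 RPKM in scar and 2.35, 2.69, 2.82 and 3.12 RPKM in remote libraries of day 7. The groups were apart on all 5 days, with differences of 1.26 ± 0.10 at day 7 and 0.86 ± 0.10 at day 42 (limma adjusted p = 7.55e-11 and 4.82e-08). Slc25a10, the dicarboxylate carrier that swaps malate or succinate for phosphate, changed direction. At day 3 it was at 3.25, 3.43, 4.25 and 4.47 RPKM in scar and 2.76, 3.05, 3.06 and 3.17 RPKM in remote libraries, a difference of 0.27 ± 0.09 (limma adjusted p = 0.013). At day 14 the scar values of 1.53, 1.84, 2.24 and 2.36 RPKM were all below the remote values of 3.24, 3.24, 3.73 and 3.95 RPKM, a difference of -0.61 ± 0.09 (limma adjusted p = 4.65e-06). The day 3 call was lost without mouse A5 or A8 of that day (limma adjusted p = 0.0618 and 0.066) and after quantile normalization (0.355), and the day 21 value was 0.05 when scaled to recovered reads.

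Fatty acids reach oxidation as acylcarnitines through Slc25a20 (chromosome 9, 108662088 to 108684641, plus strand). Its libraries of day 3 stood at 5.21, 5.57, 6.03 and 6.40 RPKM in scar and 42.7, 46.0, 46.8 and 49.4 RPKM in remote muscle. Its difference lay between -2.84 ± 0.12 and -2.52 ± 0.12 over the 5 days, and a change over days was not detected (limma F test, adjusted p = 0.441). Slc25a45, a family member among the amino acid and acylcarnitine carriers, was higher in the scar, at 5.39, 5.62, 5.92 and 6.87 RPKM against 2.18, 2.61, 3.15 and 3.23 RPKM at day 7. Its difference was 0.88 ± 0.08 at day 7 and 0.40 ± 0.08 at day 42 (limma adjusted p = 5.94e-10 and 5.66e-05). Slc25a15 (ornithine), Slc25a22 (glutamate), Slc25a38 (glycine, needed for haem synthesis) and Slc25a44 (branched-chain amino acids) were lower on all 5 days, with differences down to -0.70 and scar levels from 1.12 RPKM for Slc25a22 to 7.23 RPKM for Slc25a44, and all but Slc25a15 were above 0 on some days under other scalings. Without mouse A9 of day 7 the limma adjusted p of Slc25a38 at that day was 0.0673. Slc25a44 lost its call at day 3 without A4 or A8 (limma adjusted p = 0.0755 and 0.073) and at day 7 without A7 or A9 (0.0863 and 0.0661).

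Of 9 carriers of cofactors and pyrimidine nucleotides, 6 were lower throughout and 0 higher throughout. Slc25a33 (chromosome 4, 149744036 to 149774277, minus strand), which carries pyrimidine nucleotides, was at 1.32, 1.32, 1.39 and 1.69 RPKM in scar and 6.07, 6.30, 7.73 and 9.82 RPKM in remote libraries of day 7. Its difference was -1.79 ± 0.10 at day 7 and -1.44 ± 0.10 at day 42 (limma adjusted p = 2.32e-13 and 1.46e-11), without overlap on any day. An antisense gene, Gm13068, overlaps 14.9% of its exons and was not analysed here. Slc25a26 (S-adenosylmethionine), Slc25a42 (coenzyme A), Slc25a51 (NAD) and Slc25a16 had mean differences from -1.10 for Slc25a26 to -0.48 for Slc25a51, and Slc25a51 was above 0 on all 5 days when scaled to recovered reads. Slc25a32 (folate and FAD) was called lower at day 42 alone, and it was above 0 on every day on that scale. The peroxisomal carrier Slc25a17 was higher at day 7 alone, a call lost without A7, A9 or A10 of that day (limma adjusted p = 0.169, 0.106 and 0.0873).

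Slc25a36, the other pyrimidine nucleotide carrier, had the second smallest p for a change of its difference over the days (limma F test, adjusted p = 1.2e-07). At day 3 its scar libraries were at 5.09, 5.24, 5.68 and 5.95 RPKM and its remote libraries at 8.85, 9.13, 9.41 and 9.41 RPKM, without overlap. At day 14 the order was turned round, with 9.82, 10.04, 10.5 and 12.1 RPKM in scar against 7.31, 7.60, 8.46 and 9.62 RPKM. The difference was -0.65 ± 0.07, 0.33 ± 0.07, 0.22 ± 0.07 and -0.01 ± 0.07 on days 3, 14, 21 and 42 (limma adjusted p = 8.62e-09, 0.000103, 0.00488 and 0.911). The call at day 7, 0.15 ± 0.07 (limma adjusted p = 0.0467), was lost when any of 16 of the 20 mice was left out. When scaled to recovered reads the day 3 value was 0.04 and all later ones were above 0.

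**Figure D3:**
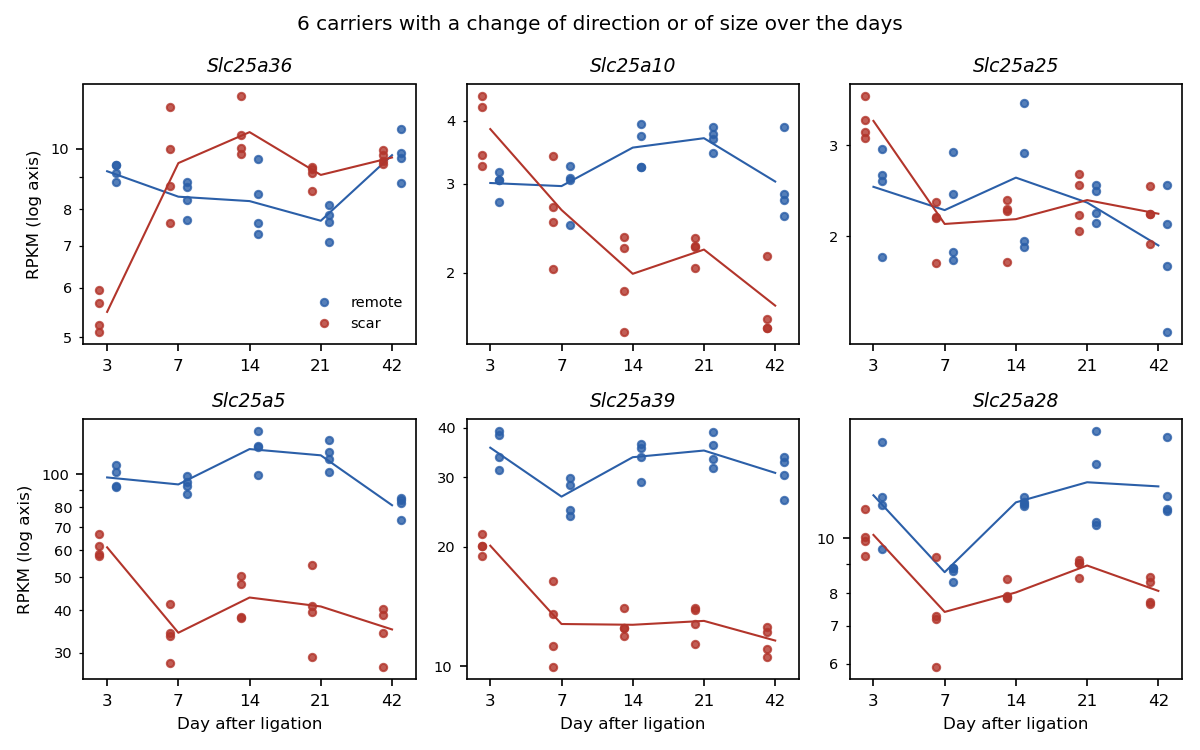
RPKM of each library on a log axis against day after ligation for Slc25a36, Slc25a10, Slc25a25, Slc25a5, Slc25a39 and Slc25a28, with red points for scar, blue points for remote libraries and lines through the means of 4. On the deposited scale Slc25a36 lies below remote muscle at day 3 and above it at day 14, which at day 3 does not hold when scaled to recovered reads, and the Slc25a5 and Slc25a39 scar levels drop from day 3 to day 7.

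The 2 uncoupling protein-like carriers had a median difference of 0.58, and the other 6 groups had a median below 0 on the deposited scale. When scaled to recovered reads, the medians of the carboxylate group (0.23) and of the phosphate, iron and glutathione group (0.30) were also above 0. Slc25a27 (chromosome 17, 43641891 to 43667214, minus strand), best known from brain, had the smallest p of all 34 for a change of its difference over the days (limma F test, adjusted p = 6.16e-09). At day 3 it was at 1.06, 1.46, 1.52 and 1.52 RPKM in scar and 1.36, 1.44, 1.85 and 1.90 RPKM in remote libraries, which overlapped. At day 21 it was at 3.48, 4.13, 4.96 and 5.16 RPKM in scar and 1.09, 1.21, 1.30 and 1.35 RPKM in remote muscle, without overlap. The difference was -0.14 ± 0.07 at day 3 (limma adjusted p = 0.0787, not called), 1.27 ± 0.07 at day 21 and 0.62 ± 0.07 at day 42 (adjusted p = 1.07e-12 and 9.7e-08), and at day 3 the scalings gave calls in both directions, 0.33 when scaled to recovered reads and -0.47 after quantile normalization (adjusted p = 0.00124 and 4.26e-06). Slc25a30, an uncoupling protein-like carrier known from kidney, was at 7.83, 8.38, 8.72 and 9.38 RPKM in scar and 3.79, 4.63, 5.04 and 5.08 RPKM in remote libraries of day 3. Its difference was 0.77 ± 0.08 at day 3 and 0.41 ± 0.08 at day 42 (limma adjusted p = 2.18e-08 and 0.000115).

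**Figure D4:**
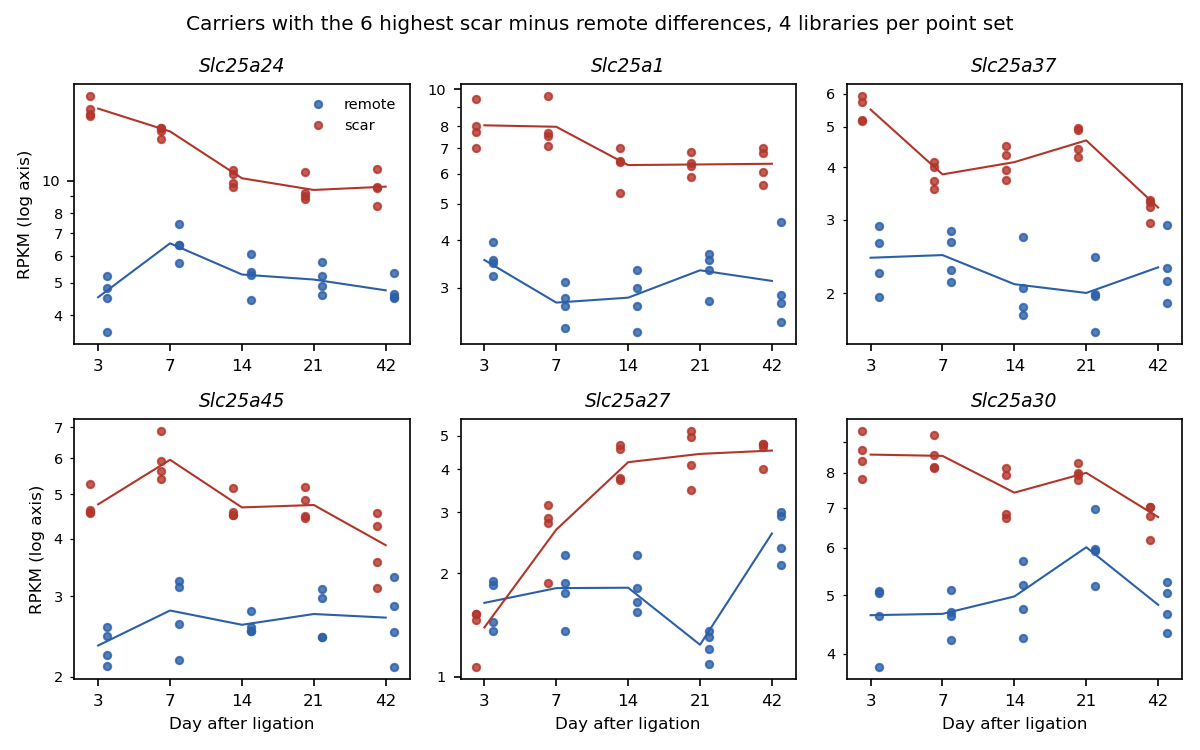
RPKM of each library on a log axis against day after ligation for the 6 carriers with the highest mean difference, with red points for scar, blue points for remote libraries and lines through the means of 4. Scar points lie above the remote points of their day except for Slc25a27, where the groups overlap at days 3 and 7, and Slc25a45, where they overlap at day 42.

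The lowest mean difference of all belonged to Slc25a34 (chromosome 4, 141618824 to 141623821, minus strand), a carrier whose substrate is not settled. It was at 0.963, 1.55, 1.70 and 1.75 RPKM in scar and 39.6, 44.6, 46.6 and 52.9 RPKM in remote libraries of day 7. By day 21 the scar held 5.38, 10.1, 10.9 and 13.5 RPKM and remote muscle 68.1, 82.8, 94.4 and 97.8 RPKM. The difference was -4.29 ± 0.17, -4.24 ± 0.17 and -2.96 ± 0.17 on days 3, 7 and 42 (limma adjusted p = 3.31e-15, 4.1e-15 and 1.81e-12), with remote means 25.9, 30.9 and 8.42 times the scar means. It also had the smallest p of the carriers for a change of the remote level over days (limma F test, adjusted p = 0.000446). Slc25a46, an outer membrane protein of mitochondrial fission and fusion, was lower on all 5 days, with differences from -1.47 to -1.19.

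Related carriers were then set against each other within each library, where scaling between libraries cancels. For 6 pairs the log2 ratio of RPKM was compared between the regions of each mouse by a two-sided sign-flip permutation test over 20 mice, with p-values adjusted over the 6 pairs. The ratio differed in the same direction in 20 of 20 mice for every pair. These ratios reuse the library values behind the region differences, so they are not independent evidence. For Slc25a24 to Slc25a23 the direction was fixed beforehand, as Slc25a24 was higher and Slc25a23 lower in 4 of 4 mice on each day. Pairs of other genes were not compared, so no share of them stands beside these 6. The 100000 resamples can give no p below 1e-05, and the permutation test's adjusted p was 1.2e-05 for 5 pairs and 2e-05 for Slc25a33 to Slc25a36.

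Slc25a5 to Slc25a4 was -4.36 ± 0.21 (SD, n = 20) in remote muscle and -2.09 ± 0.63 in scar. That shift was 3.18 at day 3, 2.65 at day 7 and 1.79 to 1.90 from day 14 on. Slc25a24 to Slc25a23 was 0.41 ± 0.36 in remote muscle and 2.57 ± 0.66 in scar, a mean shift of 2.16 ± 0.66 (SD of the 20 mice). Slc25a33 to Slc25a36 shifted the other way, from -0.05 ± 0.41 to -2.13 ± 0.46.

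Mitoferrin 1 to mitoferrin 2 went from -2.34 ± 0.42 in remote muscle to -1.01 ± 0.22 in scar, a mean shift of 1.32 ± 0.46. Slc25a40 to Slc25a39 shifted by 1.26 ± 0.44, least at day 3 (0.80) and most at day 14 (1.62). The smallest shift of the 6 was that of citrin to aralar, -0.50 ± 0.23, from 0.89 ± 0.14 in remote muscle to 0.39 ± 0.25 in scar. A shifted ratio shows unequal change of the pair, not that either level stayed the same.

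**Figure D5:**
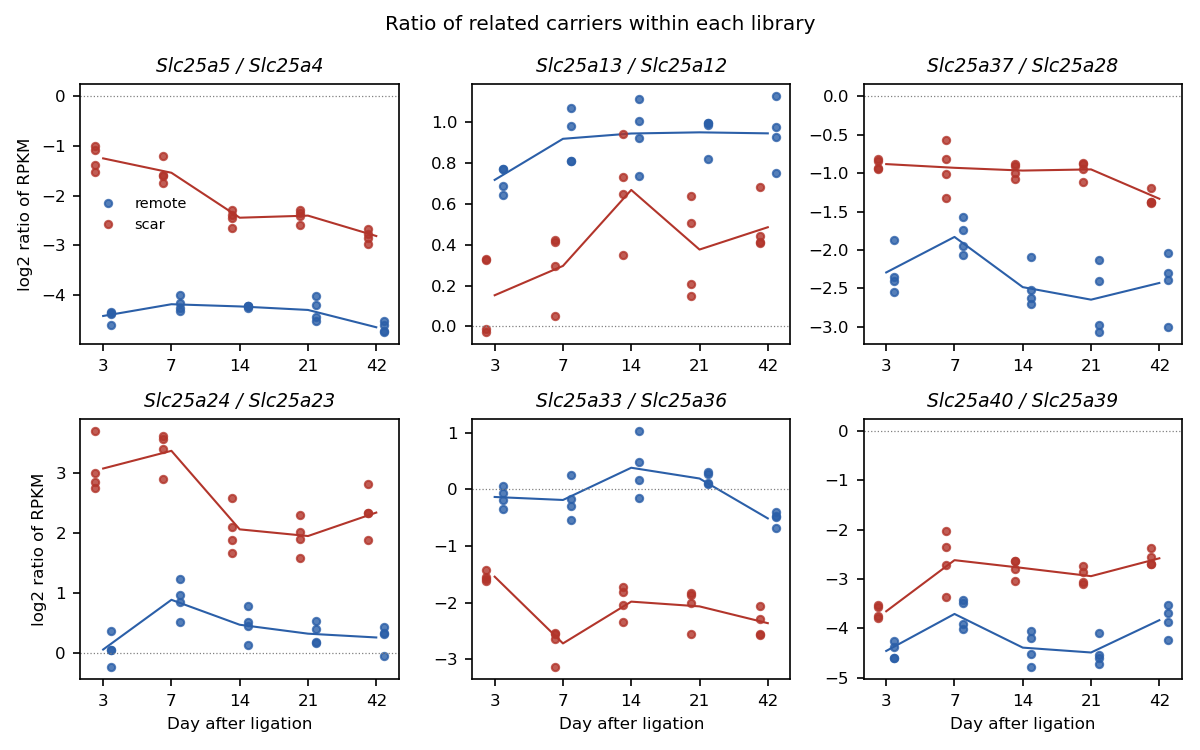
Log2 ratio of RPKM of 6 pairs of related carriers in each library against day after ligation, with red points for scar, blue points for remote libraries and lines through the means of 4. For Slc25a5 to Slc25a4 the lowest scar point is at -2.97 and the highest remote point at -4.01, while Slc25a33 to Slc25a36 and citrin to aralar lie lower in the scar.

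The difference between regions changed over the days for 21 of 34 carriers (limma F test), as it did for 74.3% of all genes. In the scar alone the level changed over the days for 29 carriers (87.6% of all genes), and in remote muscle for 18 (47.2% of all genes). From day 3 to day 7, 17 carriers fell and 6 rose in the scar, when 60.4% of all genes were called. Slc25a5 fell most, by 0.82 ± 0.16, then Slc25a39 by 0.64 ± 0.11 (limma adjusted p = 0.000198 and 4.88e-05). Slc25a36 and Slc25a27 rose most, by 0.68 ± 0.09 and 0.61 ± 0.11 (limma adjusted p = 2.87e-06 and 0.000153).

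From day 7 to day 14, 11 carriers rose and 6 fell in the scar (43.1% of all genes were called). The rises were led by Slc25a34 at 1.66 ± 0.23, Slc25a4 at 1.24 ± 0.20 and Slc25a13 at 0.94 ± 0.18 (limma adjusted p = 1.9e-05, 8.38e-05 and 0.000407). The falls included Slc25a24, by 0.42 ± 0.07, and Slc25a1, by 0.29 ± 0.09 (limma adjusted p = 9.82e-05 and 0.0179). Over the same step the median difference of the cardiomyocyte markers between scar and remote region went from -2.95 to -2.0, and its part in these rises was not tested. From day 14 to day 21 limma called 0 carriers in the scar and 0% of all genes, with 4 carriers at an unadjusted p under 0.05. From day 21 to day 42, 5 fell (24.8% of all genes were called), Slc25a37 most, by 0.42 ± 0.06 (limma adjusted p = 0.000196), and 3 were called without A10 of day 21 or B9 of day 42. All mice of day 42 and no others carry B labels, so day and label cannot be told apart in this last step. What the letters stand for is not given in the sources used here.

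In remote muscle, 7 carriers fell and 1 rose from day 3 to day 7 (25% of all genes were called). Slc25a42, the coenzyme A carrier, fell by 0.88 ± 0.17, Slc25a34 by 0.65 ± 0.13, and Slc25a24 rose by 0.45 ± 0.10 (limma adjusted p = 0.00136, 0.00147 and 0.00306). From day 7 to day 14, 8 rose and 0 fell (13% of all genes), among them Slc25a34 by 0.62 ± 0.13 and Slc25a4 by 0.38 ± 0.12 (limma adjusted p = 0.00438 and 0.035). That count was 2 when A7 or A12 of day 7, or A5 or A6 of day 14, was left out, 5 without A11 of day 14, and 14 with the detection of Xist, which marks female mice, as a covariate. From day 14 to day 21 limma called 0 carriers and 0.00878% of all genes, with 2 carriers at an unadjusted p under 0.05. From day 21 to day 42, 4 fell and 4 rose (20.5% of all genes), with Slc25a5 falling by 0.48 ± 0.09 and Slc25a27 rising by 0.68 ± 0.11 (limma adjusted p = 0.000999 and 0.000186). Without A3 or A4 of day 21 that count was 5, and without B9 of day 42 it was 4.

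Genes that work with the carriers were counted beside them. Of the family members under other symbols, 4 of 7 were in the table. Ucp3, an uncoupling protein of muscle, was the most different at day 3, at 0.900 ± 0.160 (SD, n = 4) in scar and 24.8 ± 12.2 RPKM in remote muscle, a difference of -3.61 ± 0.25 (limma adjusted p = 7.83e-11). Ucp2, its relative of many tissues, was higher on all 5 days, by 0.75 to 1.90, and above 0 under every scaling. Mtch1 was the least different at day 3, at -0.07 ± 0.07 (limma adjusted p = 0.346).

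The machinery that brings carriers into the inner membrane was lower for 11 or 12 of 13 genes on each day, when 38.7 to 41% of all genes were lower, with medians from -1.32 to -0.82, and 7 of the 13 were below 0 on all days under every scaling. Timm8b, a small chaperone between the membranes, was the most different at day 3, at -2.13 ± 0.11, and Agk, a subunit of the insertion complex, the least, at -0.05 ± 0.06 (limma adjusted p = 1.71e-13 and 0.382). Of 21 other transporters of the mitochondrial membranes, 12 or 13 were lower and 6 to 8 higher on each day, beside 38.7 to 41% and 40.5 to 44.1% of all genes. Under every scaling 12 of the 21 were below and 5 above 0 throughout. The shares of all genes below or above 0 throughout are not given here, for this list or for the import machinery. Mpc2, a subunit of the pyruvate carrier, differed most at day 3, at -3.15 ± 0.11, and Micu3, a regulator of calcium uptake, least, at 0.02 ± 0.07 (limma adjusted p = 7.51e-16 and 0.839). All 23 respiratory chain subunits examined were called lower on every day on the deposited scale, as were 28.8% of all genes. All 23 were also below 0 on every day under every scaling. Their medians were -3.15 at day 7 and -2.35 at day 42, beside -0.51 and -0.63 over the 34 carriers. On the log2(RPKM + 1) scale low genes appear to change less than they do, and the subunits and carriers were not matched for level. Among the subunits Uqcrfs1 differed most at day 3, at -3.40 ± 0.13, and Atp5d least, at -2.48 ± 0.12 (limma adjusted p = 2.07e-15 and 5.04e-14).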

How the data were processed

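The authors deposited 1 table of RPKM values, and the submitters' processing notes name STAR, edgeR and mm10. Neither the annotation nor the strand setting is stated in the sources used here. Values were taken as log2(RPKM + 1) for 11390 genes with at least 1 RPKM in 4 libraries. limma 3.58.1 (R 4.3.3, statmod 1.5.0) was fitted with trend and robust moderation, the mouse as a block for region differences, on 40 libraries, and on the 20 libraries of 1 region for steps between days. Benjamini-Hochberg adjustment ran over all genes tested. Both regions came from the same heart, and the libraries of a mouse deviated together (correlation 0.148 to 0.54). Whole reads were recovered for 99.98% of genes, within 0.01 of a whole number, with totals of 12123945 to 33596397 per library. No count test was run, since the values are RPKM. Ratios, promoters and tables used Python 3.11.15 with numpy 2.4.6, pandas 2.3.3 and scipy 1.17.1. The fits were tested on simulated data.

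Members and lists were chosen with earlier results of these data known. Library values are given for the 6 carriers with the lowest and the 6 with the highest mean difference, the 4 with the smallest F test p, those called in both directions, both members of each pair, the 3 highest in each region and those with the smallest p over days in a region. Other genes are given by list, with the most and least different at day 3. Alternatives were the pseudocount, filter, scaling, block, moderation and leaving out each mouse. The values of 1 carrier are not reported here, though it is included in the counts.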

Additional observations from a re-analysis of the deposited data

Results flagged for a closer look

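In 12 of 210 groups of 4 libraries examined, the highest or lowest library stood far from the other 3 by Dixon's gap test, where chance gives about 1 group in 20. Among scar libraries these were Slc25a10 at 2.16 RPKM (day 42, B9, highest), Slc25a27 at 1.06 RPKM (day 3, A5, lowest) and at 4.01 RPKM (day 42, B12, lowest), Slc25a28 at 8.47 RPKM (day 14, A5, highest) and at 8.52 RPKM (day 21, A11, lowest), and Slc25a45 at 5.27 RPKM (day 3, A7, highest) and at 5.15 RPKM (day 14, A4, highest). Among remote libraries they were Slc25a4 at 2249 RPKM (day 42, B1), Slc25a12 at 33.6 RPKM (day 42, B1), Slc25a23 at 4.51 RPKM (day 7, A12), Slc25a24 at 5.33 RPKM (day 42, B9) and Slc25a40 at 1.85 RPKM (day 21, A10), each the highest of its group.

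The difference between regions itself differed between days for 21 of 34 carriers (limma F test), beside 74.3% of all genes. For Slc25a36 the highest and lowest daily differences were 0.99 apart on the log2 scale, and for Slc25a10 they were 0.87 apart, each with calls in both directions.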

How the results depend on the processing

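Among 4473 values of single carriers under alternatives other than leaving out a mouse, 4126 kept sign and side of the threshold, 99 lost the call, 83 gained one and 63 changed sign with a call in at least one of the fits. Another 102 changed sign without a call in either fit. Leaving out a mouse lost 176 calls of 8840 values, gained 50, changed the sign of 152 called in neither fit and of 0 called ones. The cause of each change was not tested. Scaled to recovered reads, 14, 16, 15, 13 and 16 carriers were lower on days 3, 7, 14, 21 and 42, beside 16.7 to 20.7% of all genes, and 14, 16, 12, 15 and 12 were higher, beside 68.1 to 71.3% of all genes. With the mitochondrially encoded genes left out of that total, an alternative chosen after seeing the data, 14, 11 and 11 were higher on days 3, 21 and 42 (65.4, 60.5 and 62.7% of all genes).

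Values called in at least one of the fits that changed sign when scaled to recovered reads were as follows. Slc25a5 0.11 on day 3. Slc25a10 0.36 and 0.051 on days 7 and 21. Slc25a22 0.089, 0.067, 0.14, 0.23 and 0.013 on days 3, 7, 14, 21 and 42. Slc25a23 0.10 and 0.043 on days 14 and 21. Slc25a25 0.40 and 0.37 on days 7 and 14. Slc25a27 0.33 on day 3. Slc25a28 0.52, 0.36, 0.21, 0.30 and 0.11 on days 3, 7, 14, 21 and 42. Slc25a32 0.54, 0.54, 0.53, 0.62 and 0.41 on days 3, 7, 14, 21 and 42. Slc25a36 0.039 and 0.65 on days 3 and 42. Slc25a38 0.028, 0.26 and 0.17 on days 3, 7 and 21. Slc25a40 0.48 and 0.38 on days 3 and 42. Slc25a44 0.50, 0.39, 0.25, 0.28 and 0.31 on days 3, 7, 14, 21 and 42. Slc25a51 0.38, 0.19, 0.16, 0.21 and 0.10 on days 3, 7, 14, 21 and 42. Without mitochondrially encoded genes they were as follows. Slc25a22 0.019 on day 21. Slc25a27 0.21 on day 3. Slc25a28 0.34 and 0.010 on days 3 and 21. Slc25a32 0.37, 0.26, 0.27, 0.34 and 0.20 on days 3, 7, 14, 21 and 42. Slc25a36 0.43 on day 42. Slc25a38 0.012 on day 7. Slc25a40 0.35 and 0.22 on days 3 and 42. Slc25a44 0.32, 0.11, 0.0024 and 0.10 on days 3, 7, 21 and 42. Slc25a51 0.19 on day 3. After quantile normalization they were as follows. Slc25a5 0.073 on day 3. Slc25a25 -0.32 on day 21. Slc25a40 -0.23, -0.26 and -0.35 on days 7, 14 and 21. Uncalled differences between regions that changed sign were Slc25a32 on day 7 and Slc25a25 and Slc25a36 on day 42 after quantile normalization, Slc25a40 on day 7 and Slc25a36 on day 42 under median of ratios, and Slc25a25 on days 7 and 14, Slc25a10 and Slc25a28 on day 7 without mitochondrially encoded genes.

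Called steps moved too. In remote muscle, day 3 to 7 gave 5 with the 5 RPKM filter, day 7 to 14 gave 4 after quantile normalization and under both read scalings and 14 with Xist detection as a covariate, also chosen after seeing the data, and day 21 to 42 gave 5 with the 5 RPKM filter, after quantile normalization and when scaled to recovered reads. In the scar, day 21 to 42 gave 3 with the replicate block as a random effect. Leaving out one mouse gave 3 to 6 in the scar from day 21 to 42, 2 to 9 in remote muscle from day 7 to 14 and 4 to 9 from day 21 to 42. Without the replicate block, 17 carriers had a difference that changed over days, against 21 with it. The share of all genes was 74.3% with the block and is not given here without it. The stricter filter of 5 RPKM leaves some carriers untested, so they have no value there. Per library a carrier had 40 to 125149 recovered reads (median 439), which limits the precision of the lowest ones.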
